A study of Mus musculus with 20 samples.

Results

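Cd4 and 8 genes of striatal projection neurons (Drd1, Drd2, Adora2a, Penk, Ppp1r1b, Rgs9, Pde10a and Six3) were followed across 20 bulk RNA libraries of mouse hippocampus. They are 9 of the 49671 genes in the count tables, and all 9 are among the 18427 genes that passed the filter on low counts. They were chosen because Cd4 and striatal markers rose and fell together over these same libraries. That co-variation is therefore given as a description, without a test, and supports nothing.

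Each library came from 1 frozen hippocampus of an adult male wild-type mouse aged 10 to 12 weeks, with 5 mice in each of 4 groups. Control mice received isotype antibody. Mice of the ICI group received immune checkpoint inhibitors, which release T cells from inhibition: anti-CTLA-4 at 1 mg per dose, 3 doses a week, and anti-PD-1 at 200 µg per dose, 2 doses a week. Melanoma mice carried tumours of the syngeneic line D4M-3A.UV2, a single cell line, after bilateral injection of 500000 cells into the skin, and received isotype antibody from 1 week later. Melanoma plus ICI mice carried the same tumours and received the same inhibitors for 3 weeks; the labels give no duration for the ICI group. Brains were harvested 72 hours after the final injection. All 4 groups shared strain label, sex, age range and antibody injections by the intraperitoneal route. Library totals ran from 21990624 to 25735149 counts, and the labels name no processing batch. The library numbers ran in blocks by group, so any order they reflect cannot be told apart from group. The labelled tissue was checked against 10 hippocampal markers, whose summed level lay between 829 and 2081 CPM (counts scaled to 1000000 per library) in 19 libraries and at 276 CPM in melanoma plus ICI replicate 3.

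CD4 is the coreceptor with which helper T cells read peptide on MHC class II molecules, and some macrophages and dendritic cells carry it too. Striatal projection neurons are the GABAergic output cells of the caudate and putamen. Those of the direct pathway carry the dopamine receptor Drd1, and those of the indirect pathway carry the dopamine receptor Drd2, the adenosine receptor Adora2a and the enkephalin precursor Penk. Both kinds express Ppp1r1b (a dopamine- and cAMP-regulated phosphatase inhibitor), Rgs9 (a regulator of G protein signalling) and Pde10a (a cyclic nucleotide phosphodiesterase). Six3 is a homeodomain transcription factor of the ventral forebrain, with a known role in neurons of the indirect pathway. The hippocampus also expresses several of these genes.

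The main result is a split of the libraries. Cd4 was low in 16 libraries and high in 4, and 7 of the 8 striatal genes were high in the same 4 and in no other library. Those 4 were melanoma replicates 1, 3 and 5 and melanoma plus ICI replicate 3; melanoma replicates 2 and 4 and the other 4 melanoma plus ICI libraries were low. Six3 departed from this pattern. In a bulk sample, more cells of a type and more RNA per cell cannot be told apart.

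Promoter windows, from 250 bases before to 50 after a transcript start, were found for 5 of the 9 genes in the RefSeq table of GRCm38.p6 (Drd1, Drd2, Rgs9, Pde10a and Six3). Drd1, Drd2 and Six3 are shown, because Drd1 and Drd2 define the direct and the indirect pathway and reached nearly equal counts in the 4 libraries, while Six3 took another course. Letters run 5′ to 3′ on the gene's strand, and capitals mark the GC box GGGCGG on either strand.
Drd1 (chr13:54055609-54055908, minus strand): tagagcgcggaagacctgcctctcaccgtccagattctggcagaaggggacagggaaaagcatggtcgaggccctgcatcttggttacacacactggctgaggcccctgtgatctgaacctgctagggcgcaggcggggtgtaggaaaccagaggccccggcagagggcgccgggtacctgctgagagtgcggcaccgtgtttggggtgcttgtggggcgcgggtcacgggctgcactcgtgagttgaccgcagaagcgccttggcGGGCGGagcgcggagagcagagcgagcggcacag
Drd2 (chr9:49340153-49340452, plus strand): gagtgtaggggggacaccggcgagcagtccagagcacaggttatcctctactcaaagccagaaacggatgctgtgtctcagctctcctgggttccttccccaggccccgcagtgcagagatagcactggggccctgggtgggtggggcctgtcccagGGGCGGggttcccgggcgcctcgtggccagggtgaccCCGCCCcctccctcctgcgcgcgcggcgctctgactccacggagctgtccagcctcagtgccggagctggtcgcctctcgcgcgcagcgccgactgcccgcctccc
Six3 (chr17:85620584-85620883, plus strand): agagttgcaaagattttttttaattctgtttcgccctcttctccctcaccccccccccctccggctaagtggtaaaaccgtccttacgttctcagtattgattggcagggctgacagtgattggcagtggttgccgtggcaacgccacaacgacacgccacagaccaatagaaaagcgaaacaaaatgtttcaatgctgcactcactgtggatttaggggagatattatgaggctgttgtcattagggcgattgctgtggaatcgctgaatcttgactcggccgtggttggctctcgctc

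The GC box occurred 1 time in this Drd1 window, 2 times in that of Drd2 and 0 times in that of Six3. It occurred at least 1 time in 35.7% of 32851 windows of 300 bases, so its presence is common. The MEIS motif TGACAG was found 1 time in the Six3 window and 0 times in the Drd1 and Drd2 windows, against 19.2% of all windows. The cAMP response element TGACGTCA, present in 1.79% of all windows, was found 0 times in the windows of the 5 genes. These matches describe letters in a window and say nothing of a factor's binding.

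Cd4 lies at chr6:124864692-124888221 on the minus strand, in the coordinates of the count tables, and no other gene of the tables overlaps it. Its level in control replicates 1 to 5 was 0.392, 0.425, 0.592, 0.369 and 0.328 CPM. In ICI replicates 1 to 5 it was 0.386, 0.265, 0.0476, 0.206 and 0.489 CPM. In melanoma replicates 1 to 5 it was 6.64, 0.256, 16.3, 0.424 and 8.85 CPM. The first 2 groups lay close together, whereas melanoma held 3 high and 2 low libraries. In melanoma plus ICI replicates 1 to 5 the level was 0.452, 0.5703, 8.17, 0.908 and 0.4003 CPM, with replicate 3 alone high. The highest of the 16 low libraries and the lowest of the 4 high ones were 0.908 and 6.64 CPM, a gap of 7.31-fold that contains no library. These levels rest on 1 to 23 counts in the 16 libraries and on 158 to 377 counts in the other 4. The single count of ICI replicate 3 has an exact Poisson 95% interval of 0.025 to 5.57 counts, so the lowest levels are known only roughly. Intervals here cover counting error only.

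**Figure D1:**
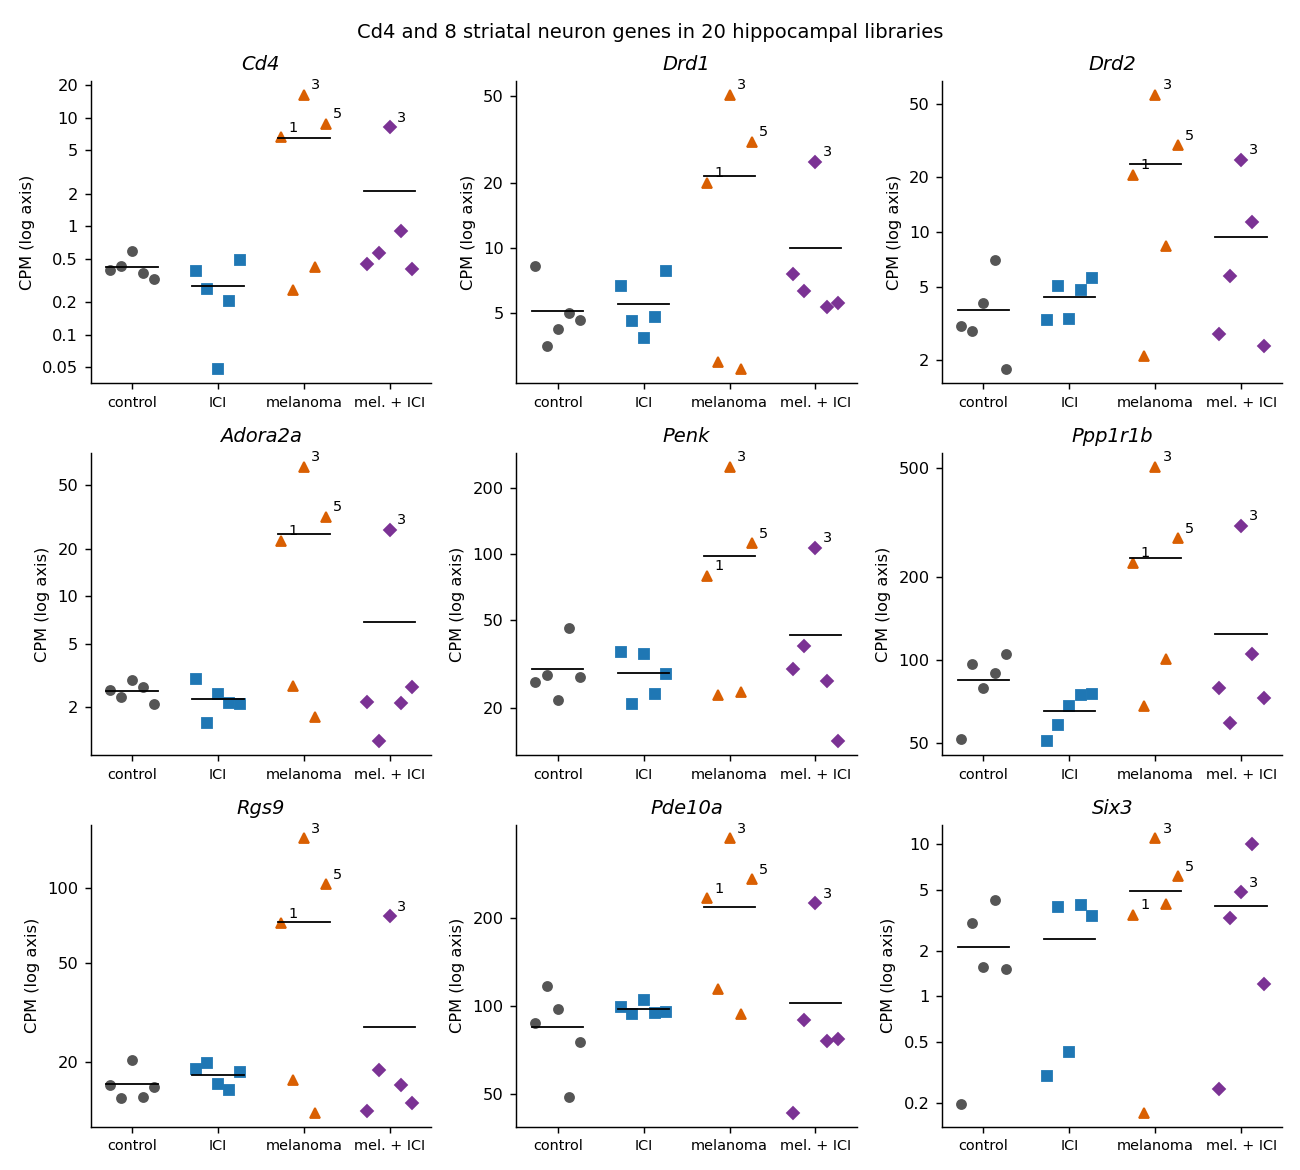
CPM (log axis) of Cd4 and the 8 striatal genes in each of 20 libraries, by group, with the group mean as a bar (5 libraries a group). Numbers mark melanoma replicates 1, 3 and 5 and melanoma plus ICI replicate 3, where Cd4 was at 6.64, 16.3, 8.85 and 8.17 CPM; the marked libraries are the top 4 in every panel except that of Six3.

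Drd1, the receptor of the direct pathway, was at 8.27, 3.53, 4.24, 5.03 and 4.64 CPM in control replicates 1 to 5. It was at 6.65, 4.59, 3.86, 4.82 and 7.82 CPM in ICI replicates 1 to 5. In the same order it was at 19.97, 2.99, 50.8, 2.76 and 30.9 CPM in melanoma. Melanoma replicates 1, 3 and 5 were thus high and replicates 2 and 4 were below the lowest control. In melanoma plus ICI it was at 7.55, 6.31, 25.005, 5.37 and 5.605 CPM. The highest of the 16 low libraries was control replicate 1, which stayed below the lowest of the 4 high ones.

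Among the indirect pathway genes, Adora2a showed the widest separation. Its level was 2.59, 2.34, 2.96, 2.68 and 2.09 CPM in control replicates 1 to 5 and 3.003, 1.59, 2.43, 2.14 and 2.09 CPM in ICI replicates 1 to 5. It was 22.4, 2.73, 65.8, 1.74 and 31.8 CPM in melanoma and 2.18, 1.22, 26.3, 2.13 and 2.67 CPM in melanoma plus ICI. All 16 low libraries stayed at or below 3.003 CPM, while the 4 high ones began at 22.4 CPM. In melanoma replicate 3 Adora2a was 26.2-fold over its median of 20 libraries, against 38.5-fold for Cd4.

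Drd2, the dopamine receptor of the same neurons, was at 3.06, 2.85, 4.06, 7.01 and 1.76 CPM in control and at 3.303, 5.08, 3.33, 4.78 and 5.600 CPM in ICI. It was at 20.5, 2.09, 56.2, 8.399 and 29.7 CPM in melanoma and at 2.75, 5.703, 24.9, 11.4 and 2.36 CPM in melanoma plus ICI. The 4 libraries high in Cd4 were again the highest. Below them came melanoma plus ICI replicate 4, melanoma replicate 4 and control replicate 4, at 11.4, 8.40 and 7.01 CPM, where Adora2a was at 2.13, 1.74 and 2.68 CPM. Penk, which gives the enkephalin that these GABAergic neurons release beside their transmitter, ran from 14.1 to 46.2 CPM in the 16 libraries and from 79.6 to 250.01 CPM in the other 4.

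The 3 signalling genes common to both pathways separated the same libraries. Ppp1r1b lay between 50.8 and 106 CPM in the 16 libraries and between 226 and 504 CPM in the 4. Rgs9 lay between 12.4 and 20.3 CPM in the 16 and between 72.2 and 158 CPM in the 4. Pde10a, whose level in the 16 libraries was already 42.9 to 116 CPM, reached 225 to 374 CPM. In melanoma replicate 3 the level came to 9.53-fold over the median for Rgs9, 6.37-fold for Ppp1r1b and 3.94-fold for Pde10a. Compared per kilobase of exon in that library, the levels were 4.05 CPM per kb for Cd4, 14.4 for Drd1, 22.1 for Drd2, 26.0 for Adora2a, 24.8 for Rgs9, 29.7 for Pde10a, 153 for Penk, 172 for Ppp1r1b and 2.01 for Six3.

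The order within the 4 high libraries was shared as well. For 7 of the 9 genes, Cd4 included, it was melanoma replicate 3, melanoma replicate 5, melanoma plus ICI replicate 3 and melanoma replicate 1, from high to low. Ppp1r1b and Pde10a each exchanged 1 neighbouring pair. Over the 4 groups the means ran melanoma, then melanoma plus ICI, then control and ICI in either order, for all 9 genes. Cd4 averaged 6.502 ± 6.67 CPM in melanoma, 2.10 ± 3.40 in melanoma plus ICI, 0.421 ± 0.102 in control and 0.279 ± 0.169 in ICI (SD, n = 5 each). Each of the 27 differences between neighbouring group means was smaller than the larger SD of the pair.

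Ratios of the Cd4 count to that of each of the 8 striatal genes, which do not depend on a library's scaling, varied by 1.13-fold (Cd4 to Drd2) to 1.54-fold (Cd4 to Pde10a) among the 4 high libraries. Cd4 stood at 29.1% to 32.9% of the Drd2 count, at 28.6% to 33.3% of the Drd1 count and at 24.8% to 31.1% of the Adora2a count. Against the more abundant genes it stood at 8.56% to 10.6% of Rgs9, 6.53% to 8.35% of Penk, 2.66% to 3.24% of Ppp1r1b and 2.84% to 4.37% of Pde10a. The ratio of Drd2 to Drd1 was 96.1% to 111%, so the receptors of both pathways had like counts. In the 16 other libraries the ratio of Cd4 ran from 1.43% to 18.6% of Drd2 and from 1.23% to 16.9% of Drd1, below the 4, as a split by Cd4 itself largely fixes. It was also below the 4 for Rgs9 (at most 5.61%), Penk (3.45%), Ppp1r1b (0.968%) and Pde10a (1.20%). Against Adora2a it ran from 1.961% to 46.7%, and melanoma plus ICI replicates 2 and 4, at 46.7% and 42.6%, exceeded all 4 high libraries. Against Six3 it ran from 5.15% to 200% in the 16 and from 144% to 193% in the 4, so these 2 ratios did not separate the libraries. The Drd2 to Drd1 ratio in the 16 ran from 36.4% to 305%.

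The precision of such a ratio follows from the counts. As a share of Cd4 plus Drd2 counts, Cd4 made up 24.5% in melanoma replicate 1 (exact Clopper-Pearson 95% interval 21.2% to 28.0%) and 22.5% in melanoma replicate 3 (20.5% to 24.6%). It made up 22.9% in melanoma replicate 5 (20.2% to 25.9%) and 24.7% in melanoma plus ICI replicate 3 (21.9% to 27.8%). These intervals cover counting error and compare nothing, since the libraries were split by Cd4 itself.

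**Figure D2:**
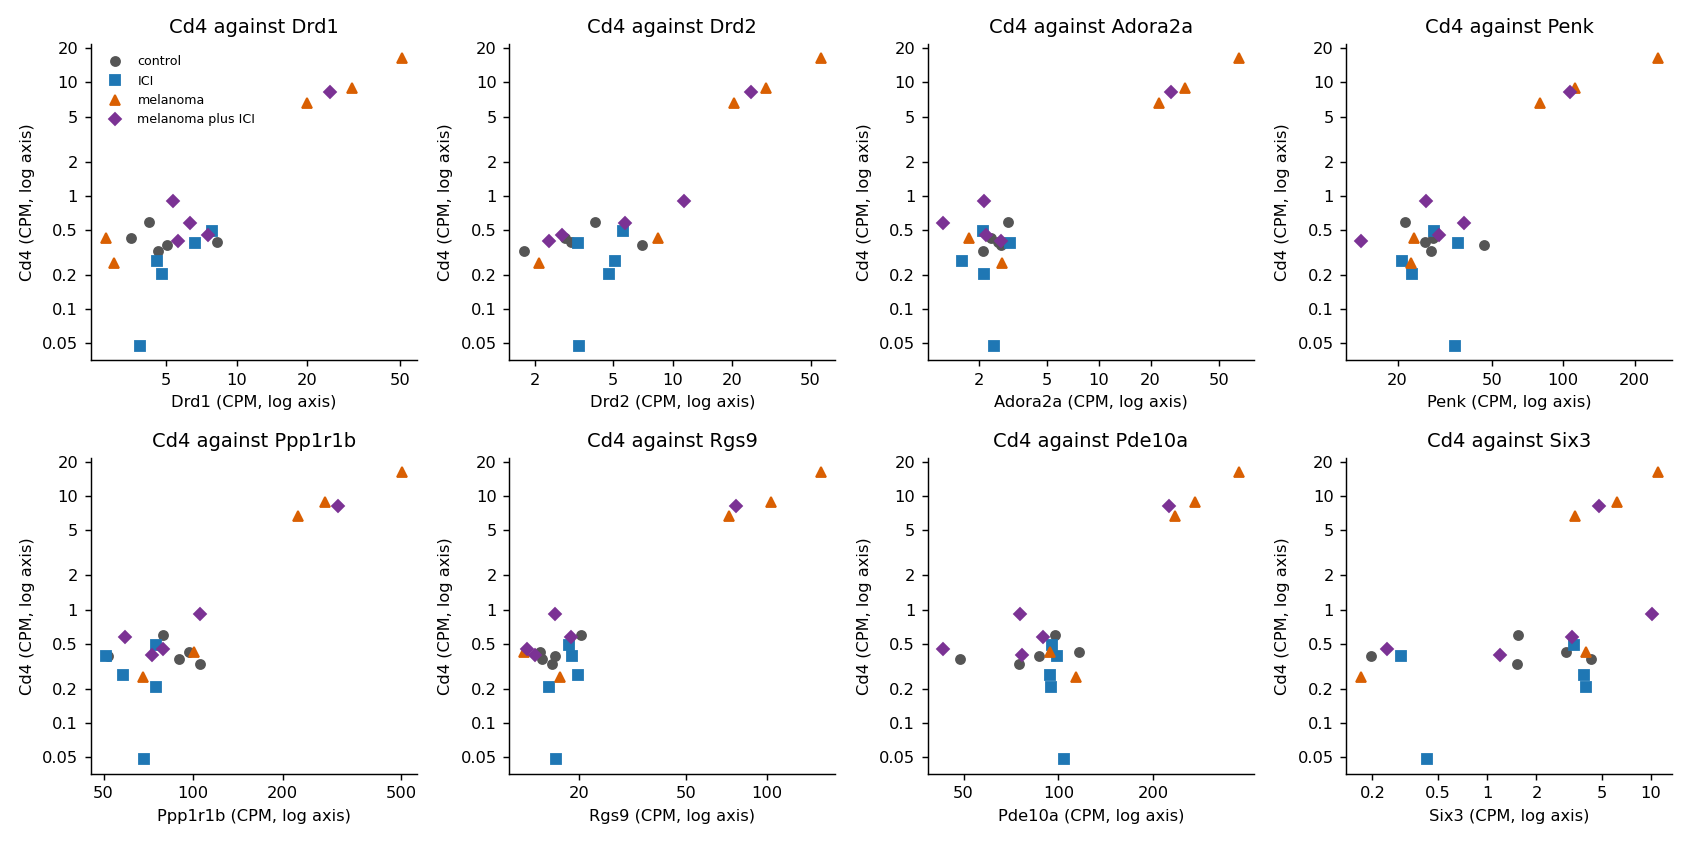
Cd4 (y axis, CPM, log axis) against each of the 8 striatal genes (x axis, CPM, log axis), 1 point per library and 20 libraries in 4 groups. In 7 panels 4 libraries lie apart at the upper right, with Cd4 between 6.64 and 16.3 CPM; in the Six3 panel 5 of the other 16 libraries reach the same Six3 range with Cd4 at or below 0.908 CPM.

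Likeness to Cd4 was measured as Pearson's r of log2 CPM (prior count 2) over the 20 libraries, each set against the 18426 other tested genes. Since the libraries fall into 2 sets, r mainly records that split, and the value over the 16 low libraries is given beside it. Rgs9 had the highest r of all genes, at 0.94, but 0.03 over the 16. Adora2a had 0.93 and ranked 4, with -0.13 over the 16. Ppp1r1b and Drd1, ranked 5 and 6, had 0.92 each, with 0.27 and 0.32 over the 16. With 1 to 23 counts of Cd4 in the 16 libraries, counting noise alone can lower r there, so these values show neither a relation nor its absence.

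Drd2 had r = 0.89 (rank 14), Penk 0.87 (rank 21) and Pde10a 0.82 (rank 32), with 0.38, -0.073 and -0.25 over the 16 libraries. Six3 had 0.54, rank 543, and 0.38 over the 16. Spearman's rho, which gives the gap no extra weight, was lower for 7 of these genes and alike for Six3: 0.51 for Rgs9, 0.40 for Adora2a, 0.67 for Ppp1r1b, 0.65 for Drd1, 0.66 for Drd2, 0.54 for Penk, 0.38 for Pde10a and 0.54 for Six3. Without melanoma replicates 3 and 5, the 2 farthest from the Cd4 median, r was 0.88, 0.86, 0.85, 0.84, 0.79, 0.74, 0.64 and 0.40 in the same order. Over all tested genes the median r was 0.017 and 0.206% (38 genes) exceeded 0.8, among them 7 of the 8 striatal genes, which were chosen on this measure. Without the 4 high libraries, r of the 8 genes lay between -0.25 and 0.38.

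The 10 genes most like Cd4, among the 15474 with a mean of at least 1 CPM, were Rgs9, Rarb, Syt6, Adora2a, Ppp1r1b, Drd1, Kcna5, Prkch, Nexn and Ptprv. Rarb encodes a retinoic acid receptor of striatal neurons, and Kcna5 a voltage-gated potassium channel. By Spearman's rho, Rarb and Kcna5 were also among the highest 10. Over the 16 low libraries the 6 genes that are not members had r of 0.69 (Kcna5), 0.57 (Syt6, a synaptotagmin), 0.52 (Ptprv), 0.47 (Rarb), 0.28 (Nexn) and 0.12 (Prkch), under the same limit of few Cd4 counts. In the 4 high libraries Kcna5 lay between 6.503 and 14.9 CPM and in the others it reached at most 4.67 CPM.

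Lists of genes of the same neurons were set beside Cd4. They were put together with results of these libraries known, and they hold the 8 striatal genes already described, so their medians are given with and without those. Of 9 listed direct pathway genes the median r was 0.59 and the range -0.15 to 0.92, with Drd1, Slc35d3 (0.86) and Tac1 (0.80) highest and Eya1 lowest; without Drd1 the median was 0.58. Tac1, the substance P precursor, lay between 15.9 and 44.1 CPM in the 4 libraries and at most at 13.6 CPM in the 16. For the 8 of 9 indirect pathway genes that were matched the median was 0.71, from 0.26 for Plxdc1 to 0.93, with the orphan receptor Gpr6 at 0.89. Without Drd2, Adora2a and Penk the other 5 had a median of 0.44. For 13 genes of all striatal projection neurons the median was 0.81, and 0.77 for the 9 left without Ppp1r1b, Rgs9, Pde10a and Six3, and the lowest was the transcription factor Bcl11b at -0.28, which is also abundant in the hippocampus. Summed over the list of 13, the 4 libraries held 1734 to 2891 CPM and the 16 held 800 to 1107 CPM. Without those 4 genes the sums were 1198 to 1843 CPM and 665 to 918 CPM. The 8 remaining direct pathway genes summed to 134 to 213 CPM in the 4 and to 93.7 to 129 CPM in the 16. For the 5 remaining indirect pathway genes the sums overlapped, at 193 to 246 CPM in the 4 and 105 to 248 CPM in the 16.

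Markers of T cells were, in sum, no higher in the libraries with high Cd4. Only 5 of 16 listed T cell genes passed the count filter, with r from -0.41 (Zap70) to 0.35 (Il7r) and a median of -0.0086. Over the 16 libraries low in Cd4 their r ran from -0.025 (Foxp3) to 0.64 (Lck), with a median of 0.33. The limit of few Cd4 counts holds for these values too. The summed level of the list was 4.53 to 9.84 CPM in the 4 libraries high in Cd4 and 6.40 to 13.03 CPM in the other 16. Cd3e, a chain of the T cell receptor complex, had 2, 0, 1 and 1 counts in melanoma replicates 1, 3 and 5 and melanoma plus ICI replicate 3, where Cd4 had 158, 377, 204 and 211. Cd3d had 0, 2, 0 and 0 counts in these libraries, and Cd3g 0, 0, 0 and 1. These Cd3 genes were as close to 0 in the 16 libraries, with 0 to 5 counts of Cd3e, 0 to 2 of Cd3d and 0 to 3 of Cd3g. Cd3e, Cd3d and Cd3g averaged 0.065, 0.011 and 0.025 CPM over all libraries, against 5.62 CPM for Zap70 and 1.57 CPM for Lck. The summed list therefore hardly registers the Cd3 genes. Other genes of the list had more counts in the 4 libraries, with 50 to 139 for the kinase Zap70, 21 to 45 for the kinase Lck, 15 to 26 for the transcription factor Foxp3 and 6 to 17 for the cytokine receptor Il7r. In the 16 they had 64 to 207, 19 to 71, 12 to 32 and 2 to 15 counts, so the ranges of all 4 overlapped. The part of T cells in the Cd4 level was not tested.

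Among 13 genes of microglia, macrophages and dendritic cells, 10 passed the filter, and r ranged from -0.48 for P2ry12 to 0.79 for Cd163, with a median of 0.16. Over the 16 libraries low in Cd4, r of these 10 ran from -0.40 to 0.70, with a median of -0.19. Cd163 and Lyve1, markers of macrophages at vessels and meninges, had r = 0.79 and 0.67. Cd163 lay between 1.98 and 4.30 CPM in the 4 libraries and between 0.554 and 2.59 CPM in the 16, so the ranges overlapped. The summed list stood at 182 to 218 CPM in the 4 and 173 to 205 CPM in the 16. The 7 MHC class II genes, whose products CD4 binds, had a median r of 0.19 and summed to 18.8 to 30.8 CPM against 16.9 to 39.2 CPM. Over the 16 low libraries, Cd74, the class II invariant chain, had r = 0.71 with Cd4, the highest of the 7, whose median there was 0.52 and whose lowest was -0.21 for H2-DMa. The part of these cells in the Cd4 level was not tested.

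Genes of other brain regions were set beside these values. The 4 listed genes of striatal cholinergic interneurons had a median r of 0.63, with Chat, which makes acetylcholine, at 0.72. The 6 neocortical genes had 0.25, the 5 thalamic genes 0.031, the 6 lateral septal genes -0.092 and the 8 choroid plexus genes 0.023. All 10 hippocampal genes had r below 0, from -0.67 for Neurod6 to -0.42 for Wfs1, with a median of -0.50. Their summed level was 1309, 837, 919 and 276 CPM in melanoma replicates 1, 3 and 5 and melanoma plus ICI replicate 3. The first 3 lay within the 829 to 2081 CPM of the other 16 libraries, and only melanoma plus ICI replicate 3 lay below it. That library also had the highest neocortical sum of the 20, at 523 CPM against at most 435 CPM elsewhere, and the lowest septal sum, at 153 CPM against at least 180 CPM elsewhere. The part of other tissue in the striatal values was not tested.

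**Figure D3:**
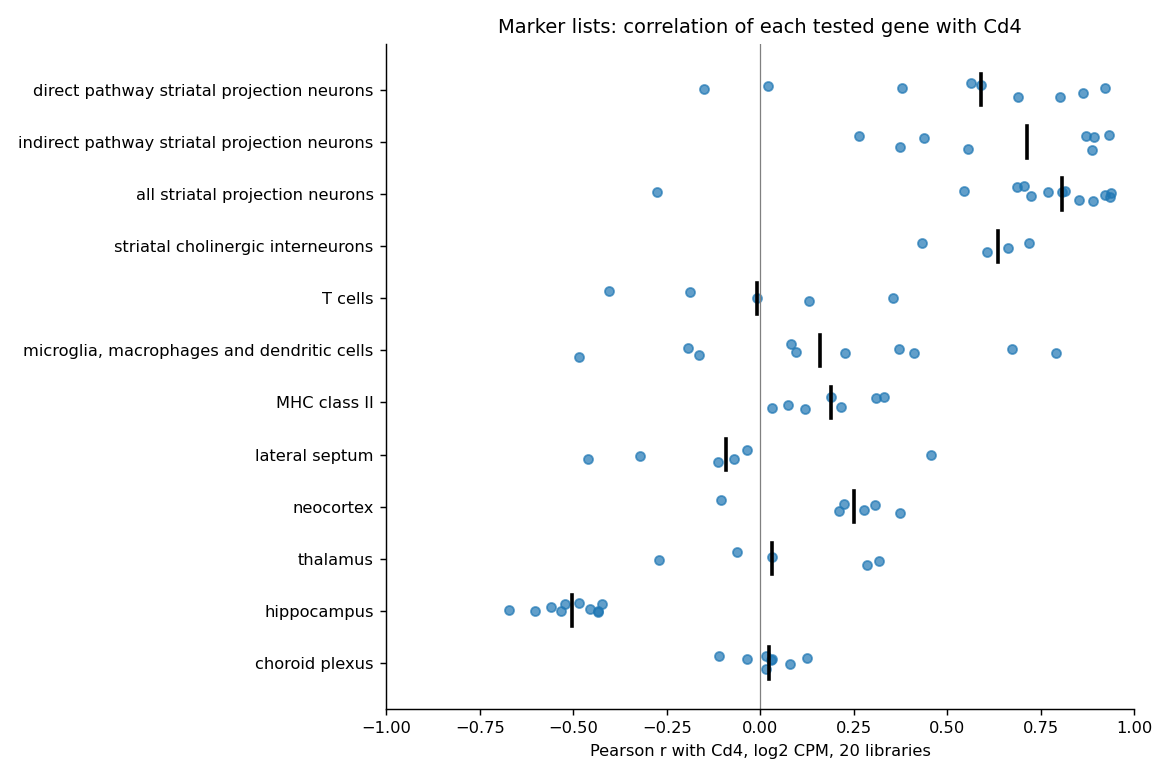
Pearson's r with Cd4 (x axis, log2 CPM over 20 libraries) for each tested gene of 12 marker lists (rows), with the list median as a bar. Medians were 0.59 to 0.81 for the lists of striatal projection neurons (0.44 to 0.77 without the 8 striatal genes chosen for their relation to Cd4), 0.63 for cholinergic interneurons, -0.0086 for T cells and -0.50 for hippocampus.

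Genes next to Cd4 on chromosome 6 showed no such split. Within 50000 bases the tables list 9 genes (Usp5, Cdca3, Gnb3, P3h3, Gpr162, Lag3, Ptms, A230083G16Rik and Mlf2), and their r with Cd4 ran from -0.38 for Lag3 to 0.36 for Cdca3. Lag3, another receptor for MHC class II on T cells, lay between 4.202 and 4.8 CPM in the 4 libraries and between 3.92 and 5.95 CPM in the 16. Gpr162, the nearest neighbour, lay between 244 and 257 CPM in the 4 libraries and between 209 and 299 CPM in the 16.

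Six3 did not share the split. In control replicates 1 to 5 it was at 0.196, 3.02, 1.55, 4.29 and 1.52 CPM, and in ICI at 0.3003, 3.88, 0.429, 3.99 and 3.38 CPM. In melanoma it was at 3.45, 0.171, 10.96, 4.03 and 6.16 CPM and in melanoma plus ICI at 0.246, 3.300, 4.84, 10.1 and 1.201 CPM. Low and high libraries occurred in every group, and 5 of the 16 libraries low in Cd4 (control 4, ICI 2 and 4, melanoma 4 and melanoma plus ICI 4) reached the lowest of the 4 high ones. The gene (chr17:85613608-85629302, plus strand) overlaps 7 others, among them the antisense gene Six3os1, which together hold 135% of its own counts. Strand use in counting is not given in the sources used here, so its level is uncertain.

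Six3 and Drd2 were nonetheless tied below the gap. Over the 16 libraries low in Cd4, Six3 and Drd2 had r = 0.73 and rho = 0.82, close to r = 0.72 and rho = 0.87 over all 20. For Adora2a and Drd2, markers of the same neurons, r was 0.83 over 20 libraries and -0.40 over the 16. For Drd1 and Drd2 it was 0.82 and -0.0027, and for Ppp1r1b and Pde10a 0.80 and -0.25. Among the 16, Drd2 and Six3 also followed the summed lateral septal list, with r = 0.73 and 0.70, while Cd4 had 0.29. With the summed thalamic list they had r = 0.57 and 0.64 (rho = 0.60 and 0.76), while Cd4 had 0.17. Melanoma plus ICI replicate 4 and melanoma replicate 4 held the highest septal sums, at 617 and 526 CPM, the highest thalamic sums, at 175 and 168 CPM, and the highest Drd2 of the 16. The part of septal or thalamic tissue in these Drd2 and Six3 values was not tested.

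**Figure D4:**
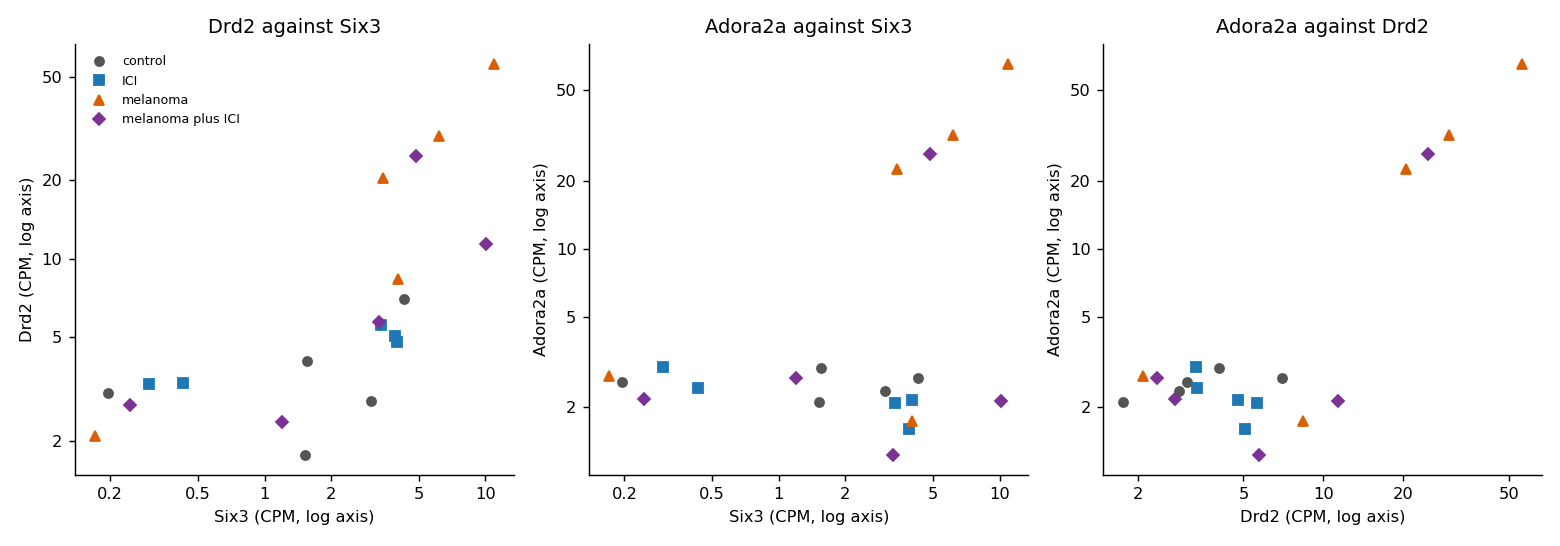
Drd2 against Six3, Adora2a against Six3 and Adora2a against Drd2 (CPM, both axes log), 1 point per library and 20 libraries in 4 groups. Drd2 is higher where Six3 is higher, while Adora2a stays at or below 3.003 CPM in 16 libraries and lies at 22.4 CPM or above in 4.

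The group comparisons put these values against the spread between mice. The averaged effect of melanoma (tumour against no tumour, averaged over both antibody treatments) is given first. In edgeR's quasi-likelihood test Cd4 had an estimate of 3.41 on the log2 scale (SE 0.73) and the smallest p of all genes, and its Benjamini-Hochberg adjusted p was 0.940. Adora2a had an estimate of 2.46 (SE 0.61), Drd2 1.87 (SE 0.48), Drd1 1.45 (SE 0.44) and Rgs9 1.40 (SE 0.40). Ppp1r1b had 1.20 (SE 0.33), Penk 1.15 (SE 0.39), Six3 0.97 (SE 0.62) and Pde10a 0.71 (SE 0.27). Without melanoma plus ICI replicate 3 the estimate was 1.58 for Adora2a and 0.45 for Pde10a, and without melanoma plus ICI replicate 4 it was 0.61 for Six3. None of the 9 passed the adjusted threshold of 0.05, and the background was 0% of 18427 genes (0 genes). At an unadjusted p under 0.05, 8 of the 9 were higher and 0 lower, against 2.55% and 1.79% of all genes (799 genes, or 4.34%, in either direction). That count reads the same libraries that chose the genes and supports nothing. The median estimate of the 9 was 1.40, beside -0.00057 over all genes.

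DESeq2, run as an alternative, called 4 genes (0.0217%) for this effect: Lcn2, Cd4, Ptprv and Rarb. Its adjusted p for Cd4 was 0.00694. Without the 4 libraries high in Cd4, the edgeR estimate for Cd4 was 0.37 (SE 0.35) and the 9 estimates ran from -0.34 to 0.41. Of the 9, 0 reached an unadjusted p under 0.05, against 380 of the 19237 genes tested in these 16 libraries. Those 4 libraries were picked by their Cd4 level and all bore tumours. Smaller melanoma estimates therefore follow from that choice and are no independent test. In the same 16 libraries 1 of 9 reached an unadjusted p under 0.05 for ICI (Drd1, estimate 0.61), against 612 of 19237 genes. For the interaction 2 of 9 reached it (Drd1 1.01 and Pde10a -0.73), against 1299 of 19237 genes. The adjusted p by edgeR was 0.998 for ICI and 0.696 for the interaction. With the mean log2 level of the 8 striatal genes as a covariate, Cd4 had an estimate of 0.66 (SE 0.28) and an adjusted p of 1.00 by edgeR. Those 8 genes were chosen for their co-variation with Cd4 in these libraries, so a smaller estimate follows from the choice and is no independent test.

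**Figure D5:**
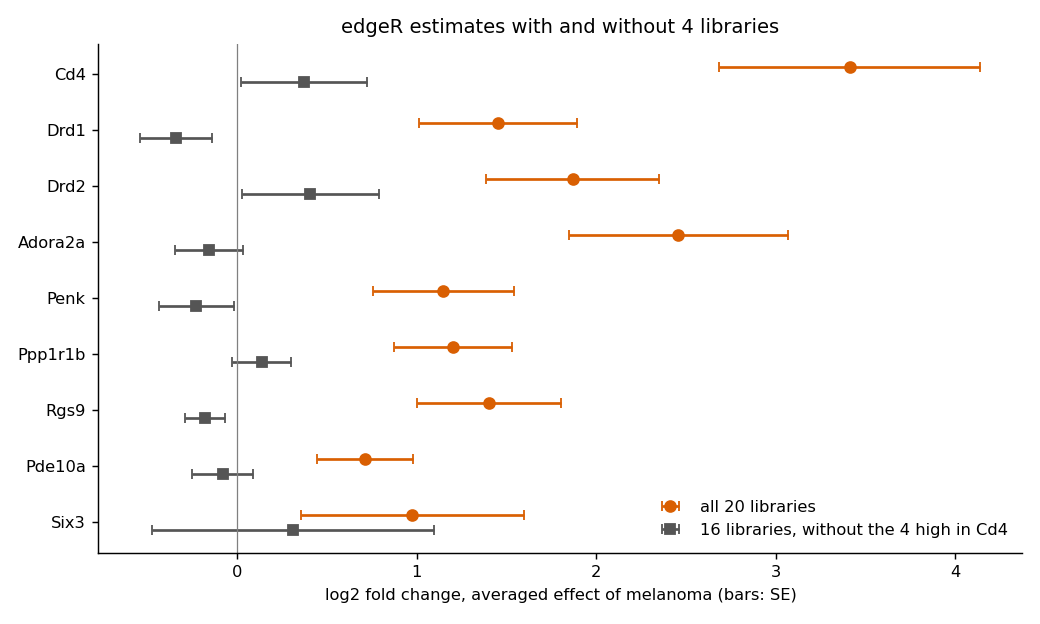
edgeR log2 fold change for the averaged effect of melanoma (x axis, bars are SE) for Cd4 and the 8 striatal genes, over all 20 libraries (circles) and over the 16 without the 4 high in Cd4 (squares). With all libraries the estimates run from 0.71 to 3.41, and without the 4 from -0.34 to 0.41. The 4 were picked by their Cd4 level and all bore tumours, so smaller estimates follow from that choice.

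For the averaged effect of ICI, which draws on the same 20 libraries, 0 of the 9 genes passed the adjusted threshold and 0 had an unadjusted p under 0.05, against 0% and 2.19% of all genes by edgeR (403 genes, 0.961% higher and 1.23% lower). DESeq2 called 0 genes. The estimates ran from -1.10 for Cd4 (SE 0.73, adjusted p 1.00) to -0.067, with a median of -0.62. For the interaction, the ICI effect with a tumour minus that without, 0 of the 9 passed, against 0% of all genes by edgeR and 0.255% by DESeq2. The 9 estimates ran from -1.68 to -0.52, and Cd4 had -1.04 (SE 1.496). For Cd4, 2 libraries moved these values most: without melanoma plus ICI replicate 3 the ICI estimate was -2.02 and the interaction -2.87, and without melanoma replicate 3 they were -0.76 and -0.36. The same 2 libraries bounded the interaction of 7 of the 8 striatal genes, the exception being Six3: it ran from -3.42 to -0.91 for Adora2a, from -2.36 to -1.01 for Rgs9 and from -1.19 to -0.0504 for Ppp1r1b. Six3 had -1.22 without melanoma plus ICI replicate 4 and 0.017 without melanoma replicate 3. For the interaction, Pde10a alone of the 9 had an unadjusted p under 0.05, with an estimate of -1.29. Over all genes 4.28% were lower at that level, 5.99% higher and 10.3% either (1892 genes). Of the 91 tested genes in the 12 marker lists, 0 passed the adjusted threshold in any of the 3 comparisons by edgeR, while 26 (21 higher, 5 lower), 2 and 11 had an unadjusted p under 0.05 for melanoma, ICI and the interaction, against 4.34%, 2.19% and 10.3% of all genes. The lists hold the 8 striatal genes and were made with these libraries known, so the melanoma count supports nothing. DESeq2 called Rarb for melanoma and Lyz2, a myeloid lysozyme, for the interaction. Nothing in the labels ties replicates to separate litters or days, so p-values measure the spread between these mice only.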

How the data were processed

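The deposited values are raw read counts per gene, 1 table for each of 20 libraries, in the featureCounts layout per the file headers. STAR 2.5.2b and DESeq2 1.16.1 are named in the submitters' processing notes; the counting settings, strand use and genome build are not given in the sources used here. Identifiers were matched to GENCODE M21 (49326 of 49671; 45128 with the same start and end; the 345 without a symbol hold 0.0702% of counts), and coordinates are those of the tables. Replicates differed by 11.5 to 134 in chi-square per gene over 40 within-group pairs and by 9.45 or more over all 190 pairs, so none was a repeated library. ICI replicate 5 and melanoma plus ICI replicate 1 both carry library number 64, and this pair differed by 64.2.

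CPM divide a count by the library total after TMM scaling, times 1000000 (factors 0.9555 to 1.0432). Tests used edgeR 4.0.16 in R 4.3.3 (filterByExpr minimum 10 and total 15, robust quasi-likelihood fit, 20 libraries, 1 mean per group, 3 contrasts), adjusted over 18427 genes, with DESeq2 1.42.0 as an alternative. Size factors, no filter, a replicate block, a striatal covariate and leaving out each library were tried.

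The members, marker lists and naming rule were chosen with earlier results of these data known. The rule names the 9 genes, per list at most 3 genes with the highest and 1 with the lowest r, the 10 genes most like Cd4, its neighbours within 50000 bases, and 4 pairs of members. Lcn2, Lyz2, Cd3e, Cd3d, Cd3g and Six3os1, outside that rule, were named after their values were seen.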

Additional observations from a re-analysis of the deposited data

Results flagged for a closer look

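Values were marked where the highest or lowest of 5 libraries stood apart from the rest of its group by Dixon's criterion, which chance meets in about 1 of 20 independent groups. The 9 genes were chosen because they rise together in these libraries, so the sets are not independent, that rate does not apply, and the marks restate the choice. Of 36 sets (9 genes in 4 groups), 8 were marked. In 7 of them the library was melanoma plus ICI replicate 3, which was far above the other 4 of its group. There Cd4 was at 8.17 CPM, Drd1 at 25.005 CPM, Adora2a at 26.3 CPM, Penk at 107 CPM, Ppp1r1b at 307 CPM, Rgs9 at 76.9 CPM and Pde10a at 225 CPM. The eighth was control replicate 4, where Penk was at 46.2 CPM. Melanoma replicates 1, 3 and 5 were not marked, since 3 high libraries of 5 leave no single value apart.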

How the results depend on the processing

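Calls depended on the tool. The averaged effect of melanoma gave 0 genes by edgeR and 4 by DESeq2, and the interaction gave 0 and 47; leaving out each library in turn gave 0 to 11 genes for the interaction (11 without melanoma plus ICI replicate 3). Size factors and no filter left both at 0. The number of striatal genes among the 100 most like Cd4 was 7 by Pearson's r, 3 by Spearman's rho and 0 without the 4 libraries high in Cd4.

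Leaving out those 4 libraries, an alternative chosen after seeing the data, turned the direction of several estimates. The 4 were picked by their Cd4 level and all bore tumours, so lower melanoma estimates follow from that choice. For melanoma the turned estimates became -0.16 (Adora2a), -0.34 (Drd1), -0.083 (Pde10a), -0.23 (Penk) and -0.18 (Rgs9). For ICI they became 0.097 (Cd4), 0.61 (Drd1), 0.16 (Drd2), 0.082 (Penk), 0.092 (Rgs9) and 0.50 (Six3). For the interaction they became 0.054 (Adora2a), 1.36 (Cd4), 1.01 (Drd1), 0.30 (Penk), 0.29 (Ppp1r1b) and 0.64 (Six3). The correlations with Cd4 became -0.13 (Adora2a), -0.25 (Pde10a) and -0.073 (Penk). The striatal covariate turned the Cd4 interaction to 0.89. Leaving out single libraries moved the ICI estimate of Six3 between -0.43 and 0.19 and its interaction between -1.22 and 0.017. The causes of these turns were not tested, and none of these estimates passed the adjusted threshold.

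The Cd4 estimate for melanoma was above 0 in every alternative run (0.37 to 3.56), with adjusted p from 0.00694 to 1.00. Whether replicate numbers pair the libraries was not settled. Deviations of same-number pairs had a median correlation of -0.0047 (range -0.35 to 0.53), against a median of -0.011 for other pairs. Of 30 same-number pairs 10 had a correlation over 0.1, and 8 of 20 libraries correlated best with their own number. With the replicate number as a block, the Cd4 estimate was 2.74 and 0 genes were called in each of the 3 comparisons. Cd4 rested on 1 to 23 counts in the low libraries, at library totals like those of the high ones.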

Other observations

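The genes listed for striatal cholinergic interneurons (Chat, Slc5a7, Slc18a3 and Lhx8) overlapped the Cd4 split only in part. Their summed level was 11.8 CPM in melanoma replicate 3, 6.60 CPM in melanoma replicate 5, 5.57 CPM in melanoma plus ICI replicate 3 and 4.75 CPM in melanoma replicate 1. Among the libraries low in Cd4 it was 10.9 CPM in melanoma plus ICI replicate 4, 5.44 CPM in control replicate 4, 4.8 CPM in ICI replicate 5 and 4.37 CPM in ICI replicate 2, and at most 1.55 CPM in the other 12. Over the 16 libraries low in Cd4, this list had r = 0.72 with Drd2, 0.60 with Six3 and 0.35 with Cd4. Six3 also had r = 0.72 with the choroid plexus list over those 16 libraries. Melanoma plus ICI replicate 4 held the highest septal sum, at 617 CPM, with Adora2a at 2.13 CPM. Whether the cholinergic list tells striatal interneurons from cholinergic neurons of other regions was not tested.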
